A study of Mus musculus with 128 samples.

Results

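The 66 genes described here are the mouse heat shock and J-domain chaperone genes, taken from the 55285 genes of each tissue table. A gene was a member when its symbol began with Hspa, Hspb, Hspd, Hspe, Hsph, Hsp90a, Dnaja, Dnajb or Dnajc followed by its number, and when its mean value was 10 or more in at least 1 tissue. Of 87 matching symbols, 15 with pseudogene names and the endoplasmic reticulum chaperone gene Hspa5 were left out by the rule. Another 5 genes (Dnajb7, Dnajb8, Dnajc5b, Dnajc5g and Hspb9) stayed below the mean of 10. The members comprised 12 Hspa, 7 Hspb, 2 Hsp90, 1 Hspd, 2 Hspe, 1 Hsph, 4 Dnaja, 11 Dnajb and 26 Dnajc genes, and 57 of them exceeded a mean of 10 in all 8 tissues. The data were bulk RNA-seq libraries from Skin, Aorta, Lung, Heart, gastrocnemius Muscle, Liver, Brain and Kidney of male wild-type C57BL/6J mice aged 6, 15, 24 and 30 months. Each of the 32 groups of tissue and age held 4 libraries, from untreated animals. The individual Aorta records name neither sex nor strain, which the design text gives for the whole series. The labels do not say whether the 4 libraries of a group came from separate animals or whether a number links tissues, so p-values measure the spread between these libraries.

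Heat shock proteins keep other proteins folded. HSP70 proteins bind exposed hydrophobic stretches in a cycle that J-domain proteins start by stimulating ATP hydrolysis and that HSP110 proteins and other exchange factors reset, and HSP90 acts later on kinases, receptors and other clients. Small heat shock proteins hold unfolding proteins without ATP, and the HSP60 and HSP10 chaperonin folds proteins imported into mitochondria. Inducible members are switched on by heat shock factor 1 (HSF1) during heat, oxidative damage or other protein stress, whereas constitutive members serve protein synthesis and traffic in unstressed cells. Here 8 members were treated as inducible (Hspa1a, Hspa1b, Hsp90aa1, Hsph1, Hspb1, Dnajb1, Dnaja1 and Dnajb4) and 8 as constitutive cytosolic partners (Hspa8, Hspa4, Hsp90ab1, Hspa14, Dnaja2, Dnajb2, Dnajc2 and Dnajc7).

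All values are the normalised reads the authors deposited, scaled within each tissue. The whole reads behind them totalled 7647585 to 82801330 per library, with a median of 15622747. Markers of each tissue's own cells were present, with no marker at 0 in all libraries of its tissue. In Aorta, however, the summed adipocyte markers (142000 to 238200) exceeded the summed smooth muscle markers (35260 to 89400), and cardiac markers ranged from 220.2 to 45790. Skin held skeletal muscle markers at 24000 to 143300 beside keratinocyte markers at 86770 to 244700. In such bulk tissue, fewer cells of a type and less RNA per cell cannot be told apart. A pair of libraries stood apart by their median rank correlation over genes with the others of their group, Heart library 4 at 24 months (0.903) and Liver library 3 at 30 months (0.935). The Heart library enters every Heart test through the shared spread, and without it 10 rather than 2 Heart members were called at 30 against 6 months.

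Several members belonged largely to 1 tissue. In CPM (recovered reads scaled to a common library total of 1000000) at 6 months, not tested, 41 of the 66 members were highest in a tissue whose 4 libraries did not overlap the next tissue. Brain held 14 of these, Muscle 7, Lung 5, Aorta, Kidney and Skin 4 each, Heart 2 and Liver 1. The corresponding share of all genes was not computed, so these counts do not show whether the members differ from other genes. Hspb7, a small heat shock protein of striated muscle, averaged 1414 ± 67.2 (SD, n = 4) in Heart and 289.9 ± 58 (SD, n = 4) in Muscle, and at most 64.9 ± 40.7 (SD, n = 4) in any other tissue. Dnajc6, the auxilin that helps strip clathrin from vesicles, averaged 338 ± 2.42 (SD, n = 4) in Brain and 36.1 ± 7.87 (SD, n = 4) in Kidney. Dnajc12, which associates with aromatic amino acid hydroxylases, averaged 125 ± 3.77 (SD, n = 4) in Kidney and 13.9 ± 1.75 (SD, n = 4) in Brain, its next tissue. Thus each of these 3 genes had a leading tissue whose libraries lay clear of all others. Among the inducible members, Hsp90aa1, the inducible cytosolic HSP90, was highest in Brain (1205 ± 35.4 (SD, n = 4)) and lowest in Muscle (60.0 ± 5.56 (SD, n = 4)). Hspb1, the broadly expressed small heat shock protein, was highest in Skin (389.7 ± 130 (SD, n = 4)) and lowest in Brain (5.67 ± 1.37 (SD, n = 4)). Hspa1b, an inducible HSP70, averaged 196 ± 135 (SD, n = 4) in Aorta and 180.2 ± 32.5 (SD, n = 4) in Skin, and these neighbours overlapped.

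The inducible members stood highest at 15 months and lower at 24 months in most tissues. Over the 8 tissues, 52 of 64 inducible gene and tissue pairs (81.2%) had their highest mean at 15 months. The corresponding shares were 33 of 64 constitutive pairs (51.6%), 169 of 433 pairs of all other members (39%) and 24.3% of all genes tested. All 8 inducible members peaked at 15 months in Muscle, Lung, Liver, Kidney, Heart and Brain, 4 of 8 did in Skin, and 0 of 8 did in Aorta. A score was taken in each library as the mean log2(value + 1) of the inducible members minus that of the constitutive members, as a description without a test. Relative to 6 months, the mean score at 15 months was higher by 0.85 in Liver, 0.81 in Muscle, 0.75 in Heart, 0.55 in Lung, 0.38 in Brain and 0.34 in Kidney, was 0.003 higher in Skin, and was 0.90 lower in Aorta. In Muscle the 4 libraries at 15 months (-0.78, -0.57, -1.35 and -1.18) lay above all 4 at 6 months (-1.94, -1.79, -1.72 and -1.68), and in the other tissues the ranges at these ages overlapped. From 15 to 24 months the mean score was lower in all 8 tissues, by 1.28 in Liver at most and 0.36 in Skin at least, with no overlap between libraries except in Kidney and Liver. At 30 months the mean score was lower than at 6 months by 1.64 in Aorta, 0.54 in Lung, 0.53 in Liver and 0.51 in Heart, and by 0.22 or less elsewhere. Only in Aorta did these 2 ages not overlap.

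**Figure D1:**
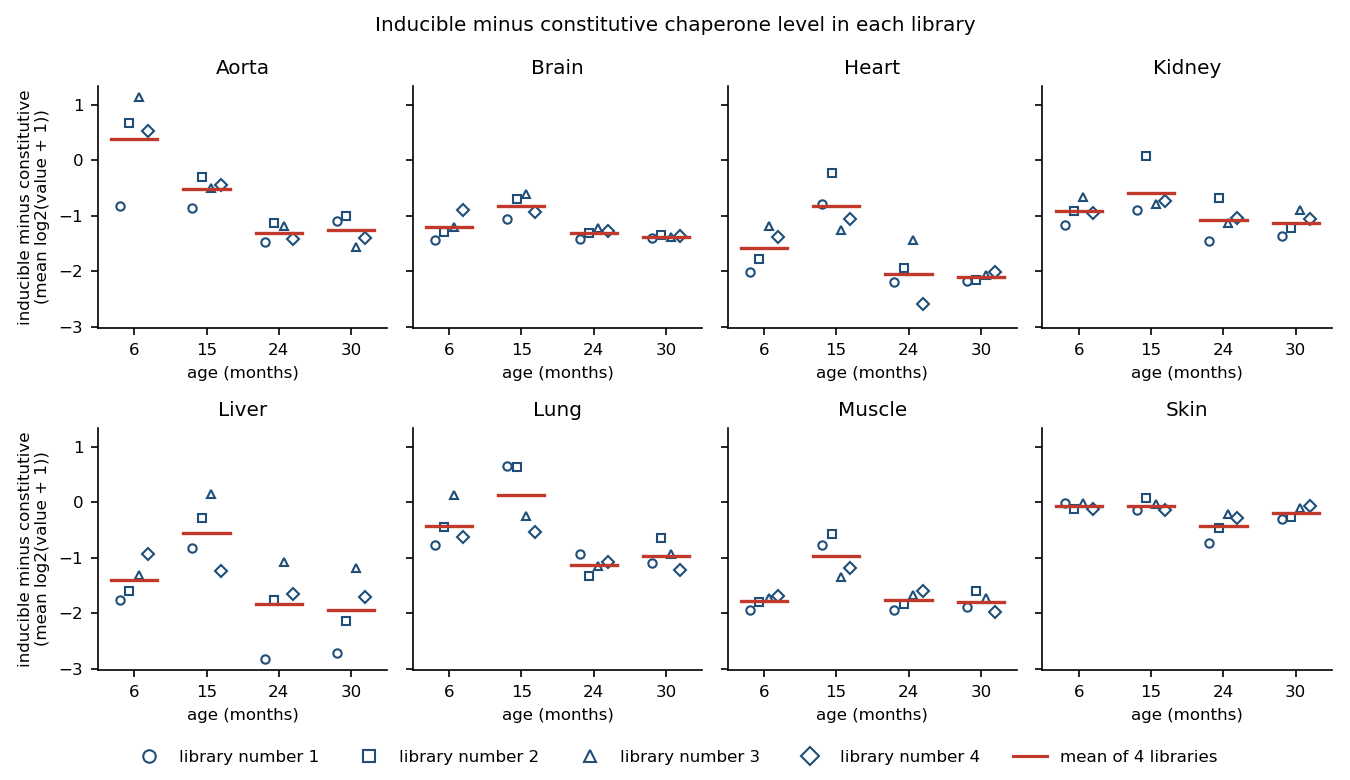
Score of each library (mean log2(value + 1) of 8 inducible members minus that of 8 constitutive members; vertical axis) at 6, 15, 24 and 30 months (horizontal axis) in 8 tissues, with a symbol for each library number and a line for the mean of 4 libraries. The 15-month means are highest in 7 tissues, by 0.003 in Skin, whereas Aorta is highest at 6 months with a mean of 0.38 and 1 low library at -0.82.

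Testing each member across all genes of its tissue with limma, an adjusted p below 0.05 being required for a call, gave 6 higher and 0 lower calls among the 64 inducible pairs (9.38% higher) at 15 against 6 months. Over all genes and tissues 0.435% were called higher and 0.164% lower. From 15 to 24 months, 24 of the 64 inducible pairs (37.5%) fell and 0 rose, beside 1.85% of all genes called lower and 1.9% higher. Those falls numbered 6 of 8 in Brain (0.383% of all Brain genes lower), 6 in Lung (2.57%), 4 in Muscle (1.23%), 3 in Liver (2.53%), 2 in Aorta (5.81%), 2 in Kidney (2.14%), 1 in Heart (0.126%) and 0 in Skin (0.202%). Over all members, inducible ones included, 64 of 497 pairs fell and 2 rose from 15 to 24 months, beside the same 1.85% and 1.9% of all genes. The falls were thus not confined to the inducible members. This comparison shares its 15-month libraries with the 15 against 6 month comparison. At 24 against 6 months 8 inducible pairs fell and 0 rose (2.52% of all genes lower and 4.04% higher). Of these falls 5 were in Aorta and 1 each in Kidney, Lung and Skin. At 30 against 6 months 11 fell and 0 rose (6.09% lower), 6 of them in Aorta, 3 in Kidney and 1 each in Brain and Lung. The median log2 fold change of the inducible pairs was 0.42 at 15 against 6 months, -0.72 at 24 against 15 months, -0.35 at 24 against 6 months and -0.37 at 30 against 6 months. The median over all genes stayed between -0.02 and 0.02 in every tissue and comparison. When the 15-month library numbered 2 was left out of every tissue, the 15 against 6 month calls became 2 higher and 1 lower, and the 24 against 15 month falls became 13. Fits that each left out 1 library gave 4 to 10 higher and 0 to 5 lower inducible calls at 15 against 6 months. The count of 6 higher and 0 lower became 10 higher and 0 lower without Heart library 4 at 24 months. It became 6 higher and 5 lower without Aorta library 1 at 6 months, and 6 higher and 1 lower without Aorta library 2 at 15 months.

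**Figure D2:**
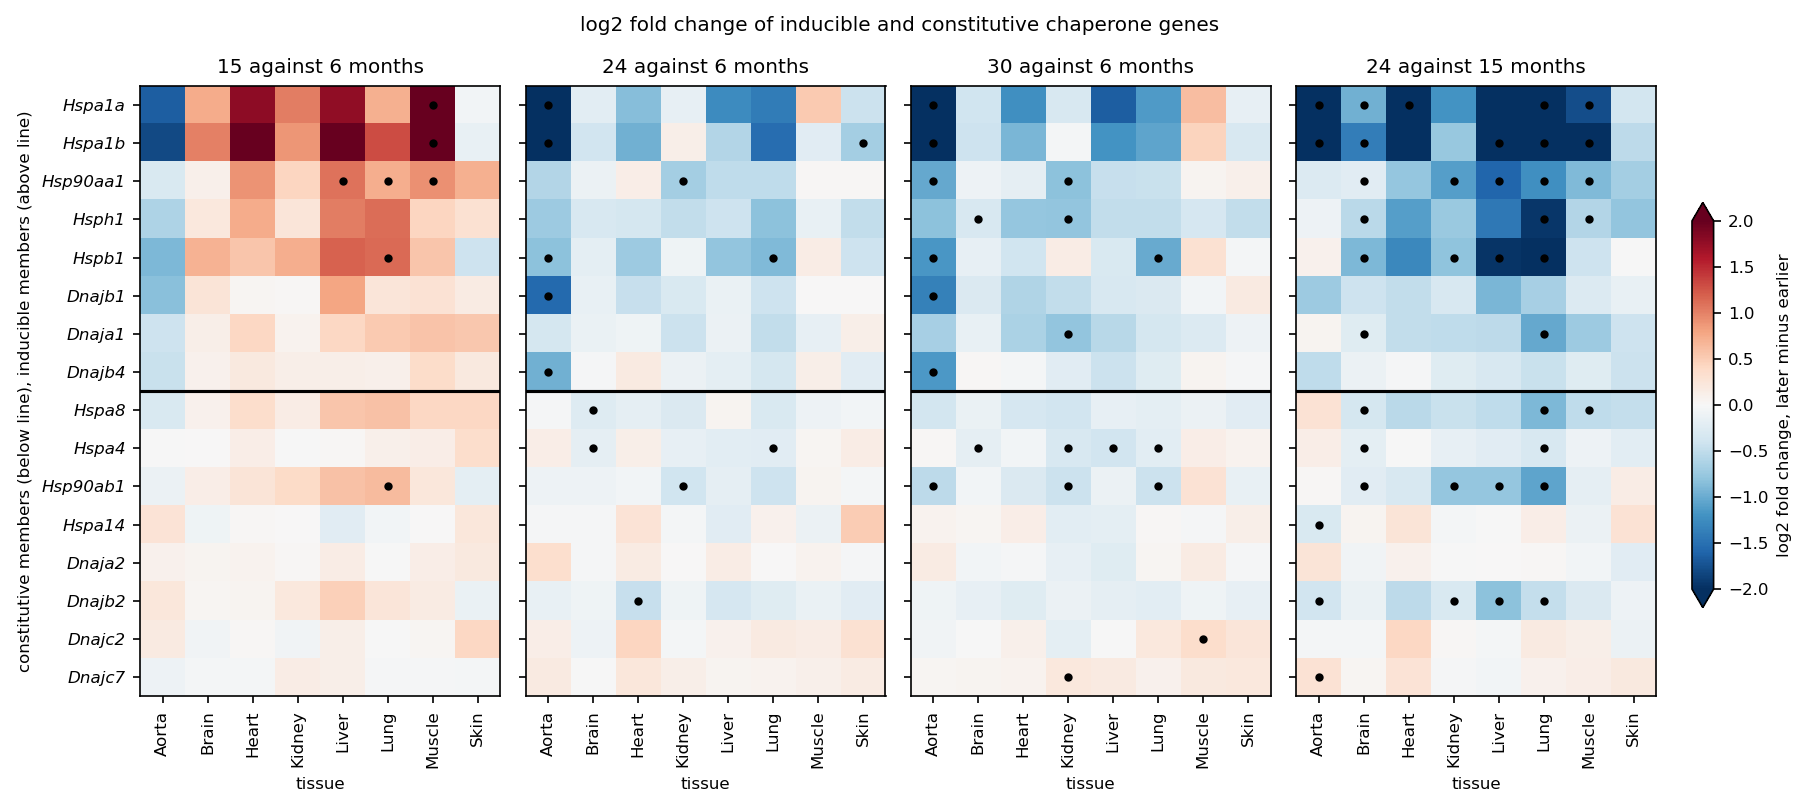
log2 fold change (colour, later minus earlier age) of 8 inducible members (above the line) and 8 constitutive members (below it) in 8 tissues for 4 comparisons, with a dot where limma's adjusted p is below 0.05. Dots among the inducible members number 6 at 15 against 6 months, 8 at 24 against 6 months, 11 at 30 against 6 months and 24 at 24 against 15 months.

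Hspa1a and Hspa1b, the stress-inducible HSP70 genes that are at very low levels in unstressed cells, had the widest range. They are near-identical neighbours whose reads can be assigned to either, so the pair was also followed as a sum. In Muscle, Hspa1a read 149.7, 141, 202 and 172 at 6 months and 1173, 1244, 407 and 729.8 at 15 months, so that all 4 later libraries exceeded all 4 earlier ones, and it rose (log2 fold change 2.29 ± 0.32 SE, limma adjusted p = 0.00269). Muscle Hspa1b rose alongside (log2 fold change 2.16 ± 0.39 SE, limma adjusted p = 0.0225). By 24 months Muscle Hspa1a was back at 189.5, 206, 266 and 307, a fall from 15 months (log2 fold change -1.77 ± 0.32 SE, limma adjusted p = 0.0144). In Heart the sum of the pair was 111, 136, 387 and 325 at 6 months, 1292, 2065, 365 and 565 at 15 months, 76.9, 127.8, 267 and 63.5 at 24 months and 91.7, 82.6, 110.4 and 119.6 at 30 months. Libraries 1 and 2 at 15 months were thus far above the rest, and libraries 3 and 4 lay within or near the 6-month range. Heart Hspa1a fell from 15 to 24 months (log2 fold change -2.64 ± 0.45 SE, limma adjusted p = 0.0241). In Liver the sum was 179.8, 284, 475 and 979 at 6 months and 1123, 2333, 4910 and 865 at 15 months, and then 83.8, 242, 779.8 and 267 and 59, 139, 383 and 248 at 24 and 30 months. Every 15-month Liver library exceeded every one at 24 and 30 months, but the 6-month range reached into that at 15 months. Liver Hspa1a alone was listed at 0 in library 1 at 24 and at 30 months, and Liver Hspa1b fell from 15 to 24 months (log2 fold change -2.83 ± 0.71 SE, limma adjusted p = 0.0379). In Lung the sum ran 1085, 1619, 4365 and 1313 at 6 months and 7450, 10190, 2233 and 1180 at 15 months, a wide and overlapping pair of ranges, and 888, 476, 571 and 694 at 24 months. In Brain it ran 494, 607, 643 and 1075, then 853, 1401, 1904 and 1055 at 15 months, then 448, 578, 631 and 561 at 24 months, and both genes fell over the last step, by log2 fold changes of -0.95 and -1.39 (limma adjusted p = 0.00963 and 0.00964).

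Hsp90aa1 rose at 15 months in Liver, Lung and Muscle. In Liver it read 3293, 5203, 4161 and 6846 at 6 months and 7272, 9844, 15685 and 8666 at 15 months with no overlap, and it rose (log2 fold change 1.08 ± 0.25 SE, limma adjusted p = 0.0467). Its 24-month Liver values of 2874, 2806, 5009.8 and 2982 were lower again (log2 fold change -1.58 ± 0.25 SE, limma adjusted p = 0.00454). In Muscle it rose from 952, 1083, 1156 and 1141 to 1802, 3284, 1416 and 2014 (log2 fold change 0.91 ± 0.18 SE, limma adjusted p = 0.0284), again without overlap. In Lung it rose by a log2 fold change of 0.72 (limma adjusted p = 0.0465), with library 3 at 6 months inside the 15-month range. The Liver and Lung calls are near the threshold and were lost in 12 and 10 of 16 fits that each left out 1 library. From 15 to 24 months Hsp90aa1 fell in Muscle, Lung, Liver, Kidney and Brain, with log2 fold changes from -1.58 in Liver to -0.22 in Brain. In Kidney the lower level held at the oldest age. Its values there were 7219, 6635, 10021 and 6727 at 6 months and 4295, 4712, 3693 and 4384 at 30 months, with no overlap (log2 fold change -0.83 ± 0.15 SE, limma adjusted p = 0.000787).

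The remaining inducible members were called in fewer tissues. Hsph1, the inducible HSP110 exchange factor, fell from 15 to 24 months in Brain, Lung and Muscle. In Lung it read 4751, 6286, 3256 and 3084 at 15 months and 1204, 624, 1255 and 1441 at 24 months (log2 fold change -1.95 ± 0.37 SE, limma adjusted p = 0.0117). Hspb1 in Lung read 1327, 1714, 2851 and 1870 at 6 months, 5333, 4757, 2779 and 4044 at 15 months, 996, 1173, 916 and 984 at 24 months and 914, 1023, 1066 and 739 at 30 months. It therefore rose (log2 fold change 1.14 ± 0.21 SE, limma adjusted p = 0.0203), fell from 15 to 24 months (log2 fold change -2.02 ± 0.21 SE, limma adjusted p = 0.000879) and was lower at 30 than at 6 months without overlap (log2 fold change -1.01 ± 0.21 SE, limma adjusted p = 0.00395). Lung smooth muscle markers also fell at 30 months, 7 of 8 of them, while 7 of 10 leukocyte markers rose, and their part in the Hspb1 result was not tested. Hspb1 also fell from 15 to 24 months in Brain, Kidney and Liver. Dnaja1, a cytosolic J-domain partner of HSP70, fell over that interval in Brain and Lung and fell from 6 to 30 months in Kidney, from 5487, 5939, 7301 and 6134 to 3712, 3592, 3079 and 4057 (log2 fold change -0.78 ± 0.15 SE, limma adjusted p = 0.00137). Dnajb1, the main inducible HSP40, and Dnajb4, its close relative, were called in Aorta alone of the 8 tissues at 24 or 30 against 6 months and in no tissue in the other comparisons.

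The highest library for most inducible members was a shallow one in 6 of the 8 tissues. In Liver, the 15-month library 3 held the highest value of all 16 libraries for 8 of 8 inducible members, and it ranked 15 of 16 in depth with 10645763 reads. The corresponding library was number 2 at 15 months in Kidney (7 of 8 members, depth rank 16 of 16), Heart (6 members, rank 14), Lung (5 members, rank 16) and Muscle (5 members, rank 15), and number 3 at 15 months in Brain (7 members, rank 14). The summed values of 12 immediate early genes, which respond within minutes to stimulation or handling, ranked 1 of 16 in those Kidney and Liver libraries, 2 in that of Muscle, 4 in those of Heart and Lung, and 11 in that of Brain. At 15 against 6 months 2 of 94 immediate early pairs (2.13%) were called higher and 0 lower over all tissues, beside 0.435% and 0.164% of all genes. Their median log2 fold change was 0.53, with 65 pairs positive and 29 negative, and the Aorta and Brain medians were negative (-0.75 and -0.12). From 15 to 24 months the median was -0.51, with 89 pairs negative and 5 positive. Over that interval 4 (4.3%) were called lower and 0 higher, beside 1.85% and 1.9% of all genes. The part of depth and of the immediate early genes in the inducible result was not tested. With number 2 left out at 15 months, 47 of 64 inducible pairs (73.4%) still had their highest mean at 15 months, with 6 of 8 in Heart and 5 of 8 in Kidney.

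Aorta differed from the other tissues, with its highest inducible levels at 6 months. Hspa1a read 401, 3614, 4886 and 2240.2 at 6 months, 480.4, 962, 679 and 528 at 15 months, 85.3, 151, 157 and 86.4 at 24 months and 201, 164, 92.7 and 103 at 30 months. Library 1 at 6 months was far below its 3 companions, yet every 6-month library stood above every one at 24 and 30 months, and Hspa1a fell (log2 fold change -3.90 ± 0.56 SE, limma adjusted p = 0.00177). Hspa1b followed it (log2 fold change -3.79 ± 0.57 SE, limma adjusted p = 0.00205), and so did Hspa1l, an HSP70 best known from testis that lies beside Hspa1a and can share its reads, with 29.2, 68, 91 and 56.5 at 6 months and 22.7, 13.8, 16 and 24.5 at 30 months (log2 fold change -1.54 ± 0.31 SE, limma adjusted p = 0.012). Hspb1 fell from 1926, 2910.5, 3392 and 3404 to 1448, 1349, 1079 and 1238 (log2 fold change -1.16 ± 0.19 SE, limma adjusted p = 0.00395), without overlap. Dnajb1, Dnajb4 and Hsp90aa1 fell by log2 fold changes of -1.36, -1.15 and -1.03 (limma adjusted p = 0.02, 0.0192 and 0.0391). For Dnajb1 and Dnajb4 library 1 at 6 months lay inside the 30-month range. Hsph1 (-0.82) and Dnaja1 (-0.66) did not pass the test (limma adjusted p = 0.313 and 0.251). In all, 10 of 65 Aorta members were lower and 2 higher at 30 than at 6 months, beside 2.59% lower and 3.08% higher among all Aorta genes. Leaving out library 1 at 6 months raised the count of called members from 12 to 17, and leaving out library 2 at 6 months or library 3 at 30 months lowered it to 6. The immediate early genes were also lower in Aorta at 30 months, 7 of 12 falling, with summed values of 15940 to 53260 at 6 months and 5343 to 7352 at 30 months. None of the 8 adipocyte, 8 smooth muscle, 10 leukocyte or 8 cardiac markers was called in Aorta at 30 against 6 months. All 8 cardiac markers were nonetheless higher, with log2 fold changes from 1.27 to 2.73. All 10 leukocyte markers were higher too, from 0.21 to 1.11. The part of the immediate early genes, of these markers or of handling before freezing in the Aorta falls and rises was not tested.

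**Figure D3:**
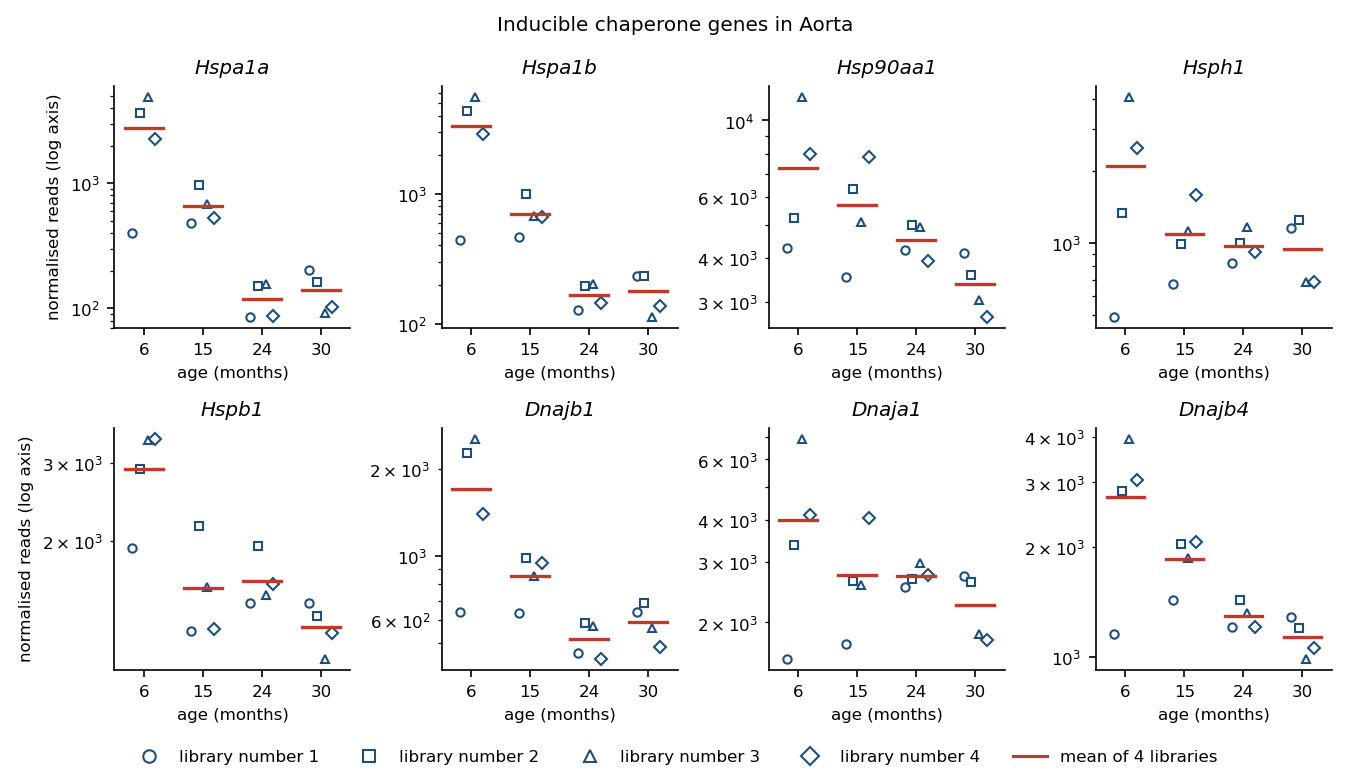
Normalised reads (log axis) of the 8 inducible members in each Aorta library at 6, 15, 24 and 30 months, with a symbol for each library number and a line for the mean. Library 1 at 6 months lies below the other 3 of its age in every panel, and for Hspa1a all 6-month libraries (401 to 4886) lie above all 30-month libraries (92.7 to 201).

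Skin held few called members. At 30 against 6 months 0 of 64 tested members were called, against 0.72% of all Skin genes (0.167% higher and 0.553% lower), while 12 had an unadjusted p below 0.05 in limma and DESeq2 called 3. Hspa1b was the 1 inducible member called in any Skin comparison, at 24 against 6 months. It read 2479, 3083, 2453 and 2205 at 6 months and 1337, 1514, 1683 and 1824 at 24 months, without overlap (log2 fold change -0.68 ± 0.13 SE, limma adjusted p = 0.0195), and 1725, 2089, 2038 and 2313 at 30 months, which reached back into the 6-month range.

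Heat shock elements, the sites that HSF1 trimers bind, were sought in RefSeq promoter windows of 300 bases (250 before to 50 after a start) on build GRCm38.p6. The files' own build is GRCm39, so these coordinates apply to the RefSeq table alone. A 2-unit element was GAANNTTC or TTCNNGAA, each of which reads the same on both strands, and a 3-unit element was 3 alternating units of GAA and TTC with 2 bases between units, which contains overlapping 2-unit matches. Of the 66 members, 52 matched the table. A 2-unit match lay in 7 of 12 windows of 7 inducible genes (58.3%), in 0 of 7 windows of 5 constitutive genes, and in 15.1% of all 32851 windows. A 3-unit match lay in 2 of the 12 inducible windows (16.7%) and in 0.603% of all windows. The inducible members were grouped as genes switched on by HSF1, so these shares describe that grouping and not the changes with age. Some of the 12 windows come from the same gene, and those of Hspa1a and Hspa1b are near-identical, so they are not separate observations. Of 57 windows of the 45 matched members that were not inducible, 10 (17.5%) held a 2-unit match and 4 (7.02%) a 3-unit match. Windows are shown for the HSP70 pair, for Hsph1 and Hspb1, which were called in several tissues, and for Hspd1, whose window held a pair of 3-unit matches, with the 2-unit matches in capitals. A match describes the letters and is not evidence of binding.
Hspa1a, chr17:34972107-34972406, minus strand: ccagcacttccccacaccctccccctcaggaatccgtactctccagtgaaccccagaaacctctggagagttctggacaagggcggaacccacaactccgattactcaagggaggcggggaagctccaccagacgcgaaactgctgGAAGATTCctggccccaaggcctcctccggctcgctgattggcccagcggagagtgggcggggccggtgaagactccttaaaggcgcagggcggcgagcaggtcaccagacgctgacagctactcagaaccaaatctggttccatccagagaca
Hspa1b, chr17:34959189-34959488, minus strand: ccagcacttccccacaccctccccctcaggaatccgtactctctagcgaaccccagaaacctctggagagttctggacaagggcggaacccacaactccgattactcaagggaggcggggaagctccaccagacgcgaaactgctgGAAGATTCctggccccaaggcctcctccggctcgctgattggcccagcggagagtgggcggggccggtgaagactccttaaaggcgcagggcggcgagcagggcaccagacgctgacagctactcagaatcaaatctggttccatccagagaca
Hsph1, chr5:149636266-149636565, minus strand: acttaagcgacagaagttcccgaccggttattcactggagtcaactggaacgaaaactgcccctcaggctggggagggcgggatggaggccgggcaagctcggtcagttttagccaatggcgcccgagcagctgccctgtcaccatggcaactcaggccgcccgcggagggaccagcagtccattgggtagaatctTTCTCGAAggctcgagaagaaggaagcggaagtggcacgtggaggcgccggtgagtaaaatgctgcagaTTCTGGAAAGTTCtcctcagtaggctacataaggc
Hspb1, chr5:135887669-135887968, plus strand: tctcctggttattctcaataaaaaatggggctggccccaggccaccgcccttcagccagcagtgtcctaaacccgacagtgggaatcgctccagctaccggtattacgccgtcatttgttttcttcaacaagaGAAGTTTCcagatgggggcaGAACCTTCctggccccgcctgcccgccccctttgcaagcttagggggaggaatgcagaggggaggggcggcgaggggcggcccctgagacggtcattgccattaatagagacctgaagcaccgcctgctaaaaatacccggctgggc
Hspd1, chr1:55087883-55088182, minus strand: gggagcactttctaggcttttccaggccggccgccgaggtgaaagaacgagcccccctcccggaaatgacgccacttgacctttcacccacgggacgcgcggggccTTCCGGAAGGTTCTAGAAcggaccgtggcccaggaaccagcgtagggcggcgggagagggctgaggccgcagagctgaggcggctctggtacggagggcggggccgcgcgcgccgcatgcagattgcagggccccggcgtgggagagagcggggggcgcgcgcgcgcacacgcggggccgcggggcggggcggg
The Hspd1 window shared 285 of its 300 bases with that of Hspe1 on the opposite strand, so the HSP60 and HSP10 genes start from 1 stretch of DNA and carry the same matches.

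The constitutive cytosolic partners were called lower from 15 to 24 months in several tissues. Over that interval 14 of 64 constitutive pairs (21.9%) fell and 1 rose, beside 1.85% of all genes called lower, and leaving out each library in turn gave 12 to 17 falls. At 15 against 6 months 1 pair (1.56%) rose and 0 fell, beside 0.435% higher among all genes. At 30 against 6 months 2 (3.12%) rose and 7 (10.9%) fell, beside 6.84% higher and 6.09% lower. The median log2 fold change of the constitutive pairs was 0.09 at 15 against 6 months and -0.07 in both of the other comparisons. Hspa4, an HSP110 family exchange factor, fell from 6 to 30 months in Brain, Kidney, Liver and Lung. In Brain its libraries read 4567, 4612, 4671 and 4735 at 6 months and 4224, 4193, 3742 and 4253 at 30 months (log2 fold change -0.18 ± 0.04 SE, limma adjusted p = 0.0101), and in Liver 2579.6, 2617, 2360.5 and 2583 and 1938, 1714, 1887 and 2223 (log2 fold change -0.39 ± 0.10 SE, limma adjusted p = 0.00856). Neither pair of groups overlapped, although the Brain change amounted to -0.18 on the log2 scale. Hsp90ab1, the constitutive HSP90, fell in Aorta, Kidney and Lung. In Kidney it read 16654, 16079, 19217 and 15413 at 6 months, 18831, 24437, 20058 and 24476 at 15 months and 12546, 12858, 11588 and 13042 at 30 months (log2 fold change -0.43 ± 0.09 SE, limma adjusted p = 0.00276), so that it too stood highest at 15 months. In Lung it rose at 15 months (log2 fold change 0.63 ± 0.14 SE, limma adjusted p = 0.0327) before falling by 24 months (log2 fold change -1.05 ± 0.14 SE, limma adjusted p = 0.00297). Hspa8, the constitutive HSP70 that also uncoats clathrin vesicles, was not called in any tissue at 30 against 6 months, with log2 fold changes from -0.38 to -0.12. It did fall from 15 to 24 months in Brain, Lung (log2 fold change -0.90 ± 0.22 SE, limma adjusted p = 0.0284) and Muscle. The 2 rises at 30 months were Dnajc2, a ribosome-associated J-domain protein, in Muscle (log2 fold change 0.35 ± 0.10 SE, limma adjusted p = 0.026), and Dnajc7, which links HSP70 and HSP90, in Kidney (log2 fold change 0.21 ± 0.07 SE, limma adjusted p = 0.0318). Hspa14, the HSP70 partner of Dnajc2, Dnaja2 and Dnajb2 had no call at 30 against 6 months.

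Across all members at 30 against 6 months, 15 of 497 gene and tissue pairs rose and 55 fell, beside 6.84% of all genes called higher and 6.09% lower over the tissues. The falls numbered 20 in Kidney (14.2% of all Kidney genes lower), 12 in Liver (11.0%), 10 in Aorta, 6 in Brain (4.18%), 4 in Lung (8.64%), 2 in Heart (1.04%), 1 in Muscle (6.92%) and 0 in Skin. Rises numbered 4 each in Kidney (14.1% higher), Liver (13.8%) and Muscle (6.15%), 2 in Aorta, 1 in Lung (10.7%) and 0 in Brain (3.32%), Heart (4.11%) and Skin. The median log2 fold change of the tested members was -0.20 in Liver, -0.15 in Kidney, -0.10 in Heart, -0.09 in Skin, -0.06 in Lung, -0.04 in Aorta, -0.02 in Brain and 0.02 in Muscle. Of the 66 members, 23 were called in no tissue, 23 in 1, 14 in 2 and 6 in 3 or more, and 8 were called in both directions in different tissues. The corresponding shares of all genes are not given, so these counts do not show whether the members differ from other genes. In every tissue but Kidney the count moved by over 1.5 times when 1 library was left out. It became 6 or 7 in Aorta without libraries 2 or 3 at 6 months or 3 or 4 at 30 months, 2 or 3 in Brain without libraries 2, 3 or 4 at 6 or 30 months, 10 in Liver without library 2 at 30 months, and 2 or 3 in Lung without library 3 at 6 months or 1 or 4 at 30 months. It became 3 and 8 in Muscle without library 2 at 6 months and library 4 at 30 months, and 0 or 1 in Heart without 13 of the 16 libraries in turn. Without library 2 at 6 months 2 Skin members were called. Summed kidney tubule markers were lower in Kidney at 30 months (205100 to 388200) than at 6 months (477300 to 510900). Singly the 8 markers were mixed, with 2 called lower and 1 higher, 5 negative and 3 positive, and a median log2 fold change of -0.14. Leaving out Kidney libraries 3 and 4 at 30 months, chosen after the data were seen, gave 1 rise and 15 falls among the members. Leukocyte markers rose at 30 months in Liver (10 of 10), Kidney (8 of 10), Heart (6 of 8), Lung (7 of 10), Brain (5 of 6) and Muscle (3 of 6), and the part of these markers in the members' changes was not tested.

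**Figure D4:**
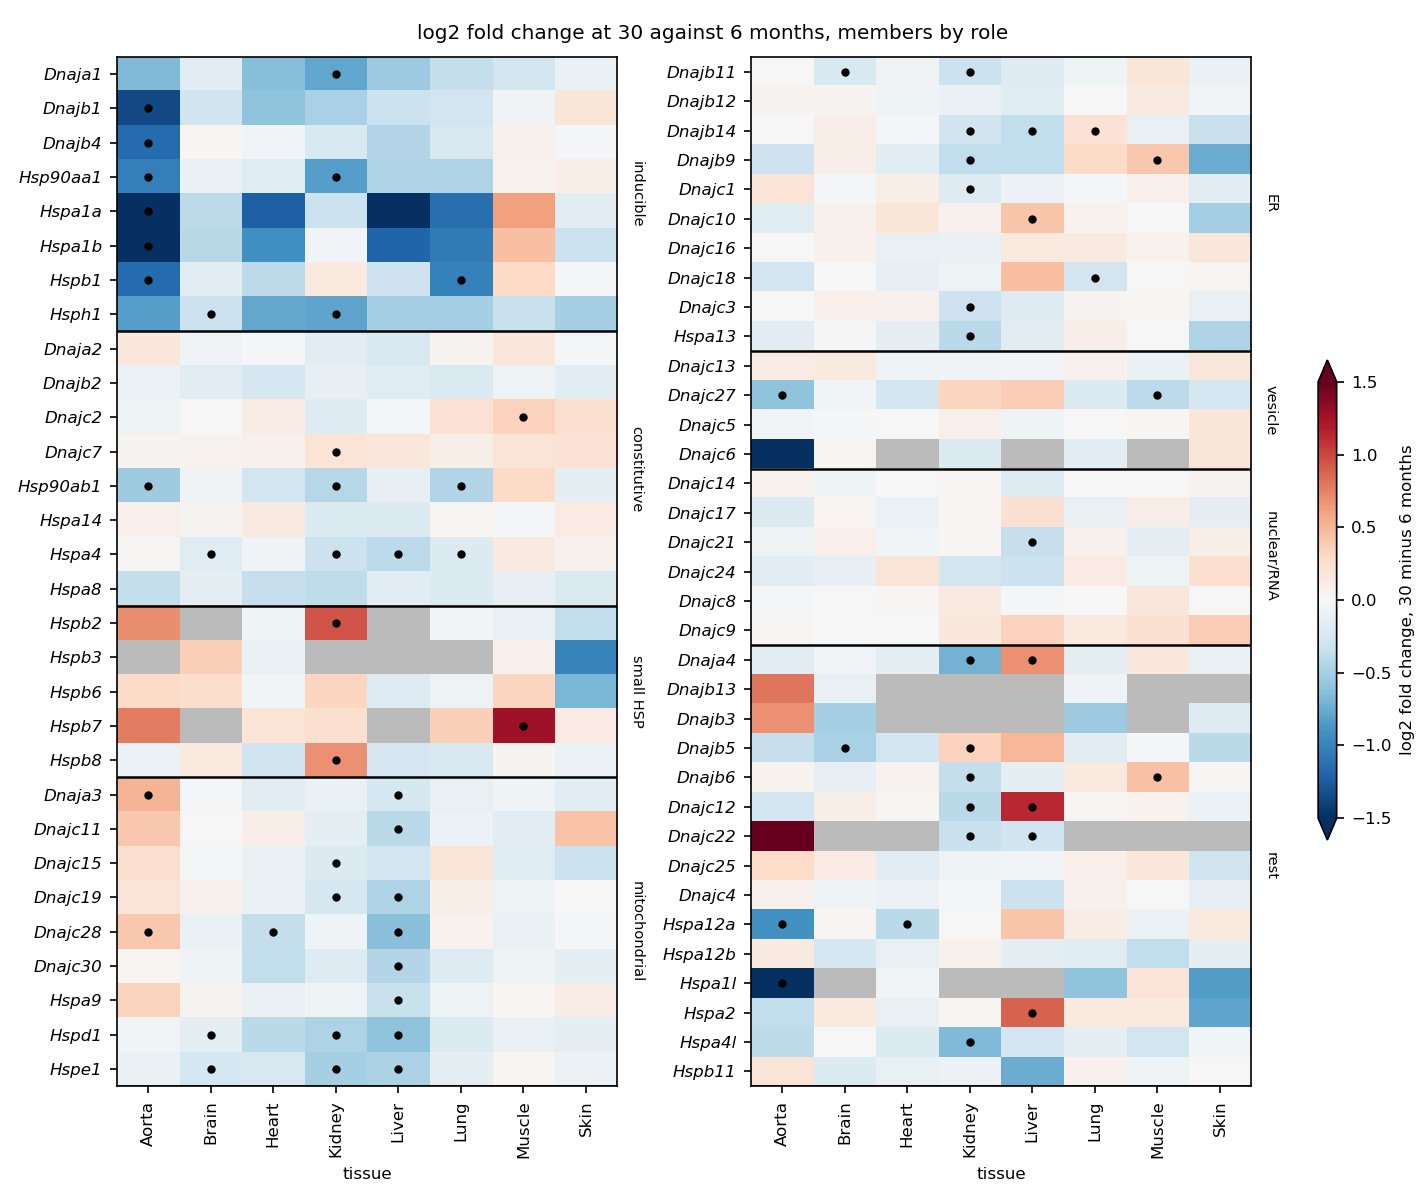
log2 fold change at 30 against 6 months (colour) of 65 members, grouped by role, in 8 tissues, with a dot where limma's adjusted p is below 0.05 and grey where a gene was not tested. Mitochondrial members carry dots in Liver for 8 of 9 genes, all lower, and inducible members carry 6 dots in Aorta.

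Most mitochondrial members fell in Liver at 30 against 6 months, 8 of 9, beside 11.0% of all Liver genes called lower. The falls numbered 4 in Kidney (14.2% of all Kidney genes lower), 2 in Brain (4.18%) and 1 in Heart (1.04%), and 2 members rose in Aorta (3.08% higher). Over the 8 tissues 15 of 72 pairs (20.8%) fell, beside 6.09% of all genes. Hspd1, which encodes the HSP60 chaperonin, read 8948, 9301, 9445 and 11254 in Liver at 6 months and 6654, 6492, 5374 and 7211 at 30 months (log2 fold change -0.60 ± 0.13 SE, limma adjusted p = 0.00403). In Kidney it read 9758, 9772, 10952 and 9263 and 7374, 7928, 6286 and 7289 (log2 fold change -0.46 ± 0.07 SE, limma adjusted p = 0.000342), and in both tissues the age groups stood apart. Hspe1, its HSP10 lid, fell in the same 3 tissues, in Kidney from 2033, 1923, 2447 and 1925 to 1553, 1548, 1178 and 1618 (log2 fold change -0.50 ± 0.11 SE, limma adjusted p = 0.00242). In Brain the falls were small, -0.14 for Hspd1 and -0.27 for Hspe1 on the log2 scale (limma adjusted p = 0.0484 and 0.0138), and the Brain Hspd1 call was lost in 13 of 16 fits that left out 1 library. From 15 to 24 months 8 of 72 mitochondrial pairs (11.1%) fell and 0 rose, beside 1.85% of all genes called lower. Hspd1 fell in 2 tissues and Hspe1 in 4 over that interval. At 15 against 6 months their log2 fold changes were positive in 8 and 7 of 8 tissues.

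In Liver, Hspa9, the mitochondrial HSP70 that drives protein import, fell from 10241, 10434, 10774 and 11368 to 8745, 7515, 8489.9 and 9427 without overlap (log2 fold change -0.33 ± 0.09 SE, limma adjusted p = 0.0181). The J-domain partners Dnajc19 of the import motor (-0.47), Dnajc30 (-0.44), Dnajc11 of the inner membrane contact sites (-0.41) and Dnajc28 (-0.63) also fell there on the log2 scale. Dnaja3, a mitochondrial J-domain partner of Hspa9, went opposite ways in 2 tissues. In Liver it read 1634, 1626, 1649.6 and 1575 at 6 months and 1392, 1205, 1472 and 1354 at 30 months (log2 fold change -0.26 ± 0.08 SE, limma adjusted p = 0.0243). In Aorta it read 2933, 2475, 2216 and 3152 and 4072, 3452, 3922 and 3831 (log2 fold change 0.51 ± 0.10 SE, limma adjusted p = 0.0084). Both pairs of groups were free of overlap. Dnajc28 likewise rose in Aorta (0.41) and fell in Heart (-0.36), calls near the threshold that were lost in 12 and 14 of 16 fits that left out 1 library.

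**Figure D5:**
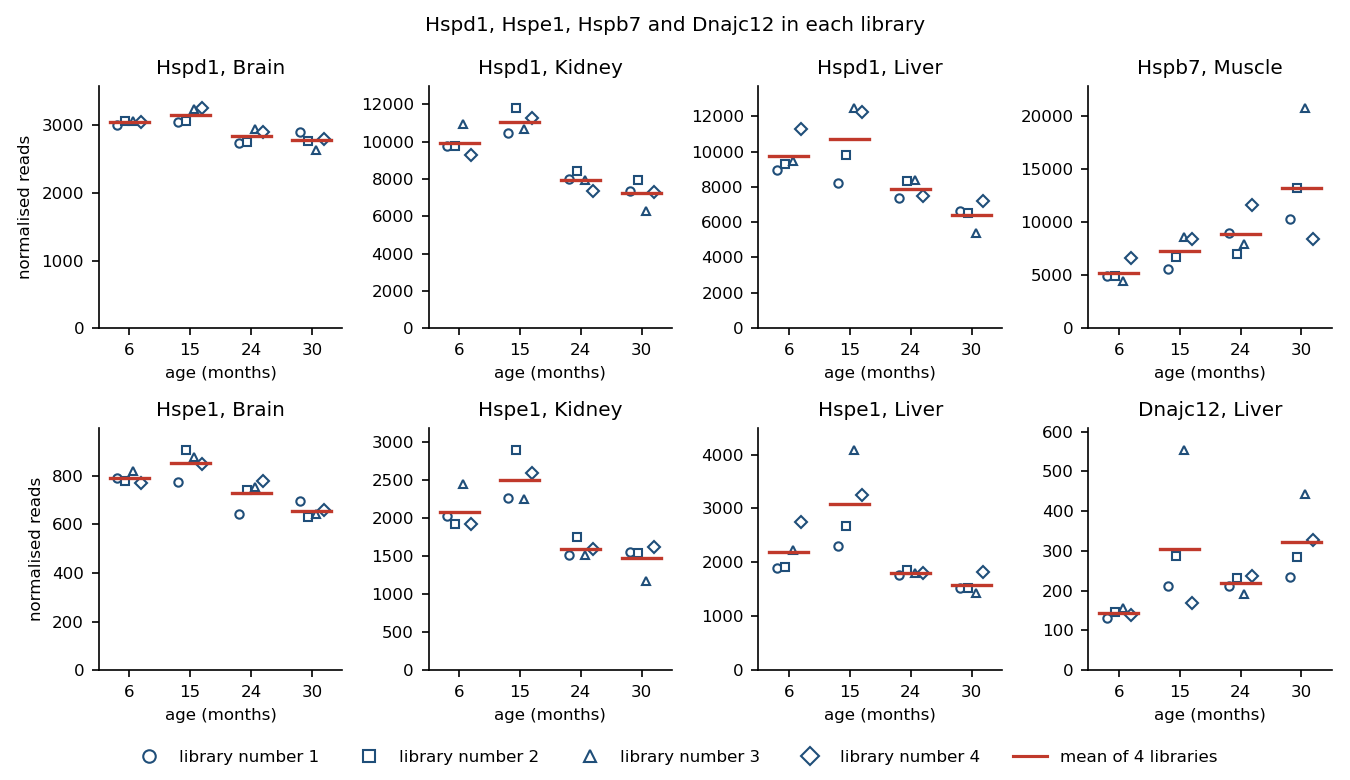
Normalised reads (axis from 0) in each library at 6, 15, 24 and 30 months for Hspd1 and Hspe1 in Brain, Kidney and Liver, Hspb7 in Muscle and Dnajc12 in Liver, with a symbol for each library number and a line for the mean. Hspd1 in Kidney lies at 9263 to 10952 at 6 months and 6286 to 7928 at 30 months, and Hspb7 in Muscle at 4396 to 6626 and 8437 to 20747.

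Of 32 pairs of small heat shock proteins other than Hspb1, 3 (9.38%) rose and 0 fell at 30 against 6 months, a share near the 6.84% of all genes called higher, and 2 of the 3 lay in Kidney, where 14.1% of genes were higher. Hspb7, the striated muscle member, read 4937, 4925, 4396 and 6626 in Muscle at 6 months, 8993, 6938, 7941 and 11604 at 24 months and 10286, 13223, 20747 and 8437 at 30 months. It rose without overlap (log2 fold change 1.27 ± 0.23 SE, limma adjusted p = 0.00253), with library 3 at 30 months far above the others. In Heart, where its CPM was highest, its log2 fold change of 0.20 did not pass (limma adjusted p = 0.72). Hspb8, which works with BAG3 to send damaged proteins to autophagy, read 71.9, 65.2, 95.2 and 67.8 in Kidney at 6 months and 117, 116, 114 and 135 at 30 months (log2 fold change 0.69 ± 0.13 SE, limma adjusted p = 0.00128). Hspb2, a muscle-enriched member, rose in Kidney at low values, from 24.9, 12.5, 11.4 and 22.3 to 31.6, 29, 40.5 and 32.6 (log2 fold change 0.94 ± 0.23 SE, limma adjusted p = 0.006). Both Kidney rises were free of overlap between the ages. In Kidney 3 of 6 smooth muscle markers and 5 of 8 adipocyte markers also rose, and their part in these rises was not tested. Cryab, a small heat shock protein gene named outside the members' symbols, rose in Muscle (0.60 log2, limma adjusted p = 0.00548) and fell in Lung (-0.50 log2, limma adjusted p = 0.00269).

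Among the 10 endoplasmic reticulum members, 6 fell in Kidney at 30 against 6 months, beside 14.2% of all Kidney genes called lower. In Liver 2 rose at 15 against 6 months, beside 0.693% of all Liver genes called higher. At 30 against 6 months 3 of 80 pairs (3.75%) rose and 9 (11.2%) fell over the tissues, beside 6.84% and 6.09% of all genes. In Kidney, Dnajc3, a J-domain co-chaperone that also restrains the kinase PERK, read 2701, 2746, 3006 and 3169 at 6 months and 2371, 2361, 2114 and 2503 at 30 months (log2 fold change -0.31 ± 0.07 SE, limma adjusted p = 0.00316). In Liver, Dnajc3 read 4588, 4894, 5172 and 5978 at 6 months and 8138, 8272, 8749 and 8550.4 at 15 months, well clear of it (log2 fold change 0.71 ± 0.09 SE, limma adjusted p = 0.00198), and 4769, 4885, 5147 and 4297 at 24 months. Dnajb11, a secretory J-domain partner of the lumenal HSP70, rose in Liver at 15 months as well (log2 fold change 0.65 ± 0.11 SE, limma adjusted p = 0.00918) and fell by 24 months (log2 fold change -0.95 ± 0.11 SE, limma adjusted p = 0.000634). Neither Liver rise was lost in any fit that left out 1 library. Dnajc10, a disulfide reductase of the lumen, rose in Liver at 30 months, from 545, 606, 554 and 505 to 757, 738, 717 and 723 (log2 fold change 0.41 ± 0.10 SE, limma adjusted p = 0.00886). Dnajb9, which acts in degradation of misfolded lumenal proteins, rose in Muscle (log2 fold change 0.40 ± 0.11 SE, limma adjusted p = 0.0306) and fell in Kidney (log2 fold change -0.37 ± 0.10 SE, limma adjusted p = 0.011). Dnajb14, a membrane-anchored member, fell in Kidney and Liver by -0.30 and -0.37 and rose in Lung by 0.21 on the log2 scale. In Lung, Dnajc18 fell from 602, 630.0, 577 and 597 to 508, 506, 524 and 458 (log2 fold change -0.27 ± 0.06 SE, limma adjusted p = 0.00559), with no overlap.

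Of 29 vesicle pairs 0 rose and 2 (6.9%) fell at 30 against 6 months, a share near the 6.09% of all genes called lower. Both falls were of Dnajc27, a J-domain protein with a Rab-like GTPase fold. In Muscle it read 1209, 1145, 1173 and 1079 at 6 months and 947, 921, 767 and 888 at 30 months (log2 fold change -0.39 ± 0.07 SE, limma adjusted p = 0.00191), without overlap. Dnajc5, the cysteine string protein of synaptic vesicles, and Dnajc6 were called in no tissue. A group listed as nuclear or RNA-related held Dnajc8, Dnajc9, Dnajc14, Dnajc17, Dnajc21 and Dnajc24, a label that need not hold for each gene. Of its 48 pairs 1 (2.08%) fell at 30 against 6 months, Dnajc21 of ribosome assembly in Liver, and 0 rose. Dnajc9, which escorts histones, was called in Skin at 24 against 6 months, where it rose (log2 fold change 0.57 ± 0.10 SE, limma adjusted p = 0.0138).

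Of the other 16 members, 5 of 108 pairs (4.63%) rose and 10 (9.26%) fell at 30 against 6 months, beside 6.84% of all genes called higher and 6.09% lower. Dnajc12 in Liver read 131, 145, 156 and 139 at 6 months and 234, 285, 444 and 328 at 30 months (log2 fold change 1.13 ± 0.27 SE, limma adjusted p = 0.00696). In Kidney, where its CPM was highest, it read 2175, 2169, 2104 and 2075 and 1871, 1819, 1275 and 1544 (log2 fold change -0.40 ± 0.10 SE, limma adjusted p = 0.00686). It thus rose in one organ and fell in the other, with no overlap in either. Dnaja4, a cytosolic J-domain protein, showed the same opposition, rising in Liver from 79.1, 106, 78.6 and 109 to 125, 150.1, 158 and 164 (log2 fold change 0.68 ± 0.19 SE, limma adjusted p = 0.015) and falling in Kidney from 496, 559, 578 and 568 to 365, 353, 267 and 363 (log2 fold change -0.71 ± 0.11 SE, limma adjusted p = 0.000331). Liver Dnaja4 had been higher still at 15 months, at 165, 242, 229 and 139.6. Hspa2, an HSP70 needed in sperm formation, rose in Liver at low values (log2 fold change 0.88 ± 0.29 SE, limma adjusted p = 0.0381), and 2 of its 4 libraries at 30 months lay near the highest at 6 months. Hspa12a, a distant HSP70 relative, fell in Aorta (log2 fold change -0.90 ± 0.20 SE, limma adjusted p = 0.0186) and Heart (log2 fold change -0.41 ± 0.09 SE, limma adjusted p = 0.0162). Dnajb6, which suppresses polyglutamine aggregation, rose in Muscle (log2 fold change 0.44 ± 0.10 SE, limma adjusted p = 0.0127) and fell in Kidney (log2 fold change -0.35 ± 0.07 SE, limma adjusted p = 0.00142), and Dnajb5 rose in Kidney (0.35 log2) and fell in Brain (-0.48 log2).

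Whether a member's change from 6 to 30 months differed between tissues was tested with a limma F test over all libraries. It was called for 31 of 66 members (47.0%) beside 32.2% of all 21469 genes tested. Dnaja3 had the smallest adjusted p (1.03e-09), with log2 fold changes from -0.26 to 0.51, followed by Dnajc11 (5.32e-07) and Dnajc10 (6.53e-06). Among the inducible members Hspa1b (0.00044), Hspa1a (0.000531), Hspb1 (0.002), Dnajb4 (0.00439) and Hsp90aa1 (0.0192) differed between tissues by the same adjusted p, and Dnajb1 (0.0864) did not pass. The changes of Hspa1a ran from -3.90 in Aorta to 0.62 in Muscle on the log2 scale.

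Genes that work with the members were counted in the same comparisons. Of 28 heat shock factors and co-chaperones, 28 of 224 pairs (12.5%) fell and 4 (1.79%) rose at 30 against 6 months, beside 6.09% lower and 6.84% higher among all genes. From 15 to 24 months 37 (16.5%) fell and 2 (0.893%) rose, beside 1.85% lower and 1.9% higher. Fkbp4, an HSP90 co-chaperone of steroid receptors, fell at 30 months in every tissue but Aorta and Skin, with log2 fold changes from -0.57 in Heart to -0.20 in Muscle. Ppid, another HSP90 cyclophilin partner, fell in Kidney, Liver and Muscle, and Chordc1, an HSP90-binding co-chaperone, in Kidney (log2 fold change -0.87 ± 0.20 SE, limma adjusted p = 0.005) and Muscle. Stip1, which joins HSP70 to HSP90, fell from 15 to 24 months in Muscle, Lung, Liver, Kidney and Brain, with its lowest log2 fold change in Lung (-1.09, limma adjusted p = 0.00743). Hsf1, the transcription factor itself, fell over that interval in Brain (log2 fold change -0.27 ± 0.06 SE, limma adjusted p = 0.0361) and Lung (log2 fold change -0.29 ± 0.07 SE, limma adjusted p = 0.0253). Of 14 subunits of the TRiC chaperonin and its prefoldin partner, 12 of 112 pairs (10.7%) fell and 2 (1.79%) rose at 30 against 6 months, beside the same 6.09% and 6.84%. Cct3 fell in Kidney, Liver and Lung and Cct6a in Kidney and Liver, whereas the prefoldin subunit Vbp1 fell in Kidney and rose in Liver and Lung.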

How the data were processed

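The files hold 8 tissue tables of 55285 genes, each with 16 libraries. The deposited unit is a normalised signal, reads divided by a size factor within each tissue, per the file values. RNA came from frozen, pulverised tissue and libraries from a stranded mRNA kit, per the labels' protocols. FastQC, STAR, RSEM, DESeq2 and build GRCm39 are named without versions or roles, per the submitters' processing notes, and the annotation and the use of strand in counting are not given in the sources used here. Whole reads were recovered for 100% of values within a tolerance of 0.01. No column was left unused.

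The main test was limma 3.58.1 (trend) on log2(value + 1) of the deposited values, with 1 mean per age in each tissue, genes kept by the edgeR 4.0.16 filter with a minimum count of 10 (13420 genes in Liver to 17112 in Lung), and Benjamini-Hochberg adjustment over all genes tested (threshold 0.05, two-sided). The added 1 makes a fold change of a low gene smaller than it is. Members tested numbered 59 in Liver to 65 in Aorta. Alternatives were pseudocounts of 0.1 and 5, no filter, TMM scaling, edgeR quasi-likelihood, DESeq2 1.42.0, a replicate block, the 2 ages alone and each library left out. The comparison of 24 with 15 months, leaving out the 15-month library numbered 2 in every tissue and leaving out Kidney libraries 3 and 4 were added after the data were seen.

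Members and lists were chosen with earlier results of these data known. Named were the inducible members, members called in 1 direction in 3 or more tissues at 30 against 6 months, the 3 highest and lowest called changes per tissue, the 10 smallest p-values in the F test and the 4 pathway genes per list called in most tissues. Others named were chosen after their values were seen. The values of 1 member are not reported here, although it is counted among the members. The scripts ran in R 4.3.3 and Python 3.11.15 and were tested on simulated data. No 2 libraries of a group agreed within sampling noise.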

Additional observations from a re-analysis of the deposited data

Results flagged for a closer look

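In 9 of 142 groups of 4 libraries checked (32 of the score and 110 of called members), the gap between 1 library and the other 3 took up a larger share of the group's range than Dixon's 95% critical value for 4 samples, which chance gives in about 1 group in 20. The shares were 0.934 for Hsph1 and 0.889 for Hspa4 in Brain at 30 months, 0.888 for Dnaja4 and 0.861 for Hspe1 in Kidney at 30 months, 0.890 for Dnajb6 and 0.8293 for Dnajb9 in Muscle at 30 months, 0.857 for Dnajb9 in Muscle at 6 months, 0.850 for Dnajb14 in Liver at 30 months and 0.859 for Hspa4 in Liver at 6 months. In Brain and Kidney the outlying library at 30 months was number 3 for all 4 genes and the lowest of its group, and in Muscle it was number 3 for both genes and the highest of its group. Of these genes, Hsph1 in Brain read 4622, 4561, 3768 and 4589 and Dnajb6 in Muscle read 1899.5, 1823, 2778 and 1909.5, in library order.

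For 15 members named above, tissues differed in the 30 against 6 month change by the limma F test. The adjusted p was 1.03e-09 for Dnaja3, 5.32e-07 for Dnajc11, 6.53e-06 for Dnajc10, 2.46e-05 for Hspa9, 2.51e-05 for Dnaja4, 3.48e-05 for Hspa2, 7.59e-05 for Hspa12a, 0.0001 for Dnajb6, 0.000101 for Dnajb14 and 0.000119 for Dnajc12. Among the inducible members it was 0.00044 for Hspa1b, 0.000531 for Hspa1a, 0.002 for Hspb1, 0.00439 for Dnajb4 and 0.0192 for Hsp90aa1. The log2 fold changes of Dnaja3 ran from -0.26 in Liver to 0.51 in Aorta and those of Dnaja4 from -0.71 in Kidney to 0.68 in Liver.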

How the results depend on the processing

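None of the 133 single calls that were checked changed direction under any alternative. They were the members' calls at 15 against 6 and 24 against 15 months, and those of named members at 30 against 6 months. Single calls at 24 against 6 months were not checked in this way. At 30 against 6 months, fitting the 2 ages alone gave 6 called members in Aorta, 2 in Brain, 13 in Heart, 2 in Lung and 2 in Muscle, against 12, 6, 2, 5 and 5. Without the filter 1 was called in Heart and 3 in Lung, and DESeq2 called 5 in Heart, 10 in Muscle and 3 in Skin. Over all tissues, at 24 against 6 months the 28 calls became 17 without the filter and 46 with DESeq2. At 15 against 6 months the 12 calls became 36 with DESeq2, 19 with the 2 ages alone and 6 without the 15-month library numbered 2, and at 24 against 15 months the 66 became 43 without it. With the replicate number as a block, 1 member was called in Heart and 3 in Lung, and no other count of members by tissue or comparison moved by over 1.5 times. Within a tissue, the deviations of same-numbered libraries of different ages correlated from -0.53 to 0.47. Those of differently numbered libraries correlated from -0.50 to 0.59. Medians by tissue ran from -0.06 in Skin to 0.05 in Brain for the same number, and from -0.03 in Lung to 0.02 in Skin otherwise. These correlations were taken within tissues, so they cannot show whether a number links tissues. Of 133 single calls, 58 were lost in at least 1 alternative and 69 in at least 1 fit that left out a library.

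Leaving out each library in turn gave 6 to 17 called members at 30 against 6 months in Aorta, 0 to 2 in Skin, 2 to 6 in Lung, 0 to 10 in Heart, 3 to 8 in Muscle, 10 to 18 in Liver, 2 to 6 in Brain and 19 to 25 in Kidney. Over all tissues it gave 25 to 32 at 24 against 6 months, 8 to 18 at 15 against 6 months, 57 to 77 at 24 against 15 months and 24 to 37 in the F test of tissue differences. The score difference at 30 against 6 months ranged from -0.15 to -0.082 in Skin, -2.04 to -1.39 in Aorta, -0.66 to -0.35 in Lung, -0.66 to -0.38 in Heart, -0.077 to 0.050 in Muscle, -0.78 to -0.27 in Liver, -0.24 to -0.065 in Brain and -0.30 to -0.13 in Kidney. At 15 against 6 months it ranged from -0.042 to 0.031 in Skin, -1.30 to -0.65 in Aorta, 0.37 to 0.77 in Lung, 0.55 to 0.89 in Heart, 0.68 to 0.94 in Muscle, 0.62 to 1.08 in Liver, 0.31 to 0.48 in Brain and 0.11 to 0.44 in Kidney. With every other member as the constitutive side, the Skin score difference was 0.0032 at 30 and 0.117 at 15 against 6 months, and with the narrow inducible list -0.19 at 15 months. The cause of these shifts was not tested.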

Other observations

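Rbm3, an RNA-binding protein gene known to be raised by cooling, went the opposite way from the inducible chaperones. From 15 to 24 months it rose in Muscle (0.44), Lung (0.93), Liver (0.99), Kidney (0.61), Heart (0.74) and Brain (0.65) on the log2 scale. In Liver it read 1068, 969, 966 and 942 at 6 months, 756, 827, 833 and 958 at 15 months, 1988, 1608, 1513 and 1593 at 24 months and 1804, 1920.2, 3084 and 1719 at 30 months. It rose there from 6 to 30 months as well (log2 fold change 1.07 ± 0.15 SE, limma adjusted p = 0.000377), and also in Muscle, Lung, Kidney, Heart and Brain. Cirbp, its cold-inducible relative, rose from 15 to 24 months in Brain (0.59), Lung (0.73) and Muscle (0.61) and from 6 to 30 months in Kidney, Liver and Muscle. Of 103 pairs of 14 circadian clock and temperature-responsive genes, 12 (11.7%) rose and 2 (1.94%) fell at 30 against 6 months, beside 6.84% of all genes called higher and 6.09% lower. From 15 to 24 months 16 (15.5%) rose and 4 (3.88%) fell, beside 1.9% and 1.85%. The labels used here give no time of day or body temperature.

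From 6 to 30 months immediate early genes moved in different directions in different tissues. Of 12, 7 fell and 0 rose in Aorta at 30 against 6 months (2.59% of all Aorta genes lower), 3 fell in Brain (4.18% lower), and 8 rose and 0 fell in Kidney (14.1% higher). Fos, a transcription factor induced within minutes of stimulation, changed by -2.62 in Aorta, 1.91 in Kidney and 1.84 in Liver on the log2 scale, with limma adjusted p of 0.0153, 0.0187 and 0.0342. In Kidney 3 of 8 inducible chaperones fell and 0 rose at 30 against 6 months, beside 14.2% of all Kidney genes called lower. Whether the immediate early and inducible chaperone changes are related was not tested.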
